A study of Arabidopsis thaliana with 10 samples.

Results

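The 3 genes described here encode proteins annotated as mitochondrial: AT4G39690, annotated as a subunit of MICOS, AT4G32060, annotated for mitochondrial calcium uptake, and AT4G31930, of the mitochondrial glycoprotein family. They were picked for large changes after plants were moved to light that favours photosystem II. They are 3 of 644 genes with a spot of their own, in a table of 3261 features. The values in all columns belong to the choice, so they are given as a description and none of them is tested.

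Arabidopsis thaliana plants of the accession Col-0 spent 21 days on soil in white light, on a cycle of 8 h light to 16 h dark. They were kept for 3 days in light exciting mainly photosystem I (PSI light) or mainly photosystem II (PSII light) and then moved to the other light. Leaves were taken 30 min, 2 h, 8 h and 48 h later, as pools of 250 to 500 plants, and each shift also has a column for plants acclimated to white light. Radioactively labelled cDNA was hybridised to nylon filters carrying 3292 gene-sequence tags, in 3 independent experiments per time point. The source labels name thylakoid membranes, whereas the protocols describe total RNA from leaf. Because the table holds ratios and no levels, neither the tissue nor the mitochondrial location of the 3 proteins could be checked against the data.

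The table holds 10 columns, 1 per condition, with no replicate columns, so no ratio below carries an error and no difference could be set against a spread between experiments. Each ratio was taken to have the harvested condition on top and the pre-shift plants below. The design text makes this likely and no label states it, and the reference of the white light columns is unknown. Under the opposite reading every "higher" becomes "lower". Within the PSI shift the direction is less settled. Across features its 30 min and 8 h columns correlate at 0.489, whereas 48 h correlates with them at −0.289 and −0.136. The 2 h column correlates with 8 h at −0.192, with 30 min at 0.032 and with 48 h at 0.132. These values do not show which of the columns would be turned, that is, have their ratios inverted. Values with 48 h, or with 2 h and 48 h, turned are given below and were added after the data had been seen. Values are log2 ratios minus the median log2 ratio of their column, called here the value relative to the column median, unless given as deposited. A value of 1 or more, or of −1 or less, is 2-fold or more from the median. In leaf tissue, fewer cells with a transcript and less of it per cell cannot be told apart.

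Mitochondria of leaf cells respire, and in the light they also oxidise glycine from photorespiration and reducing power exported from chloroplasts. MICOS is a protein complex of the inner membrane that holds the narrow junctions where the folded cristae meet the boundary membrane, and its large subunit also makes contacts with the outer membrane. Calcium enters the matrix through uniporter channels, and EF-hand proteins of the MICU type, which bind calcium in the space between the membranes, set the threshold for that entry. Mitochondrial glycoprotein family members are acidic matrix proteins, known from yeast as Mam33 and from human cells as p32.

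In the shift to PSII light AT4G39690 and AT4G32060 lay above the column median in every column and AT4G31930 below it in every column. At all 4 time points, 27.2% of all features lay above the median and 24.9% below it. In the shift to PSI light these positions were lost or became mixed. The plot of the members by column shows the separation on the PSII side and the crossing lines on the PSI side.

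**Figure D1:**
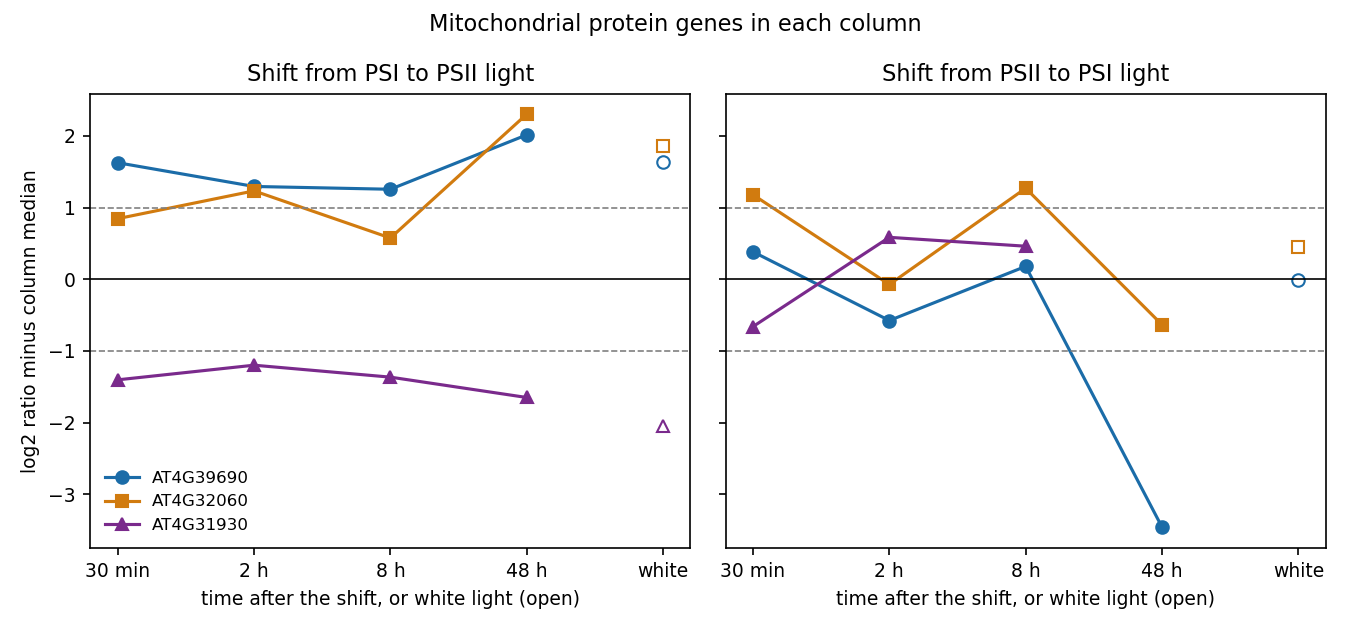
Value of the 3 mitochondrial protein genes, as log2 ratio minus column median, at each time after the shift (filled, joined) and in white light (open), with 1 column per condition and dashed lines at 2-fold. AT4G39690 and AT4G32060 stay above 0 and AT4G31930 stays below −1 in the left panel, and AT4G31930 has no value at 48 h or in white light in the right panel.

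AT4G39690, the MICOS gene, had deposited ratios of 2.63, 2.29, 2.76 and 2.37 from 30 min to 48 h of PSII light, and 2.48 in the white light column of that shift. The 5 values differ little from each other, and each is more than 2-fold above the reference, as was so at all 4 time points for 1.36% of features. After the shift to PSI light the ratios ran 0.944, 0.751, 0.778 and 0.115, with 0.886 in white light. No column of the PSI shift reaches the ratio of any column of the PSII shift, and the 48 h column stands far below the other columns. With that 48 h column turned, its ratio would instead lie above every column of the PSII shift. As deposited, 14.6% of features lay above the reference at all 4 time points of PSII light and 5.19% lay below it at all 4 of PSI light.

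Relative to the column median, AT4G39690 had 1.63, 1.29, 1.25 and 2.01 from 30 min to 48 h of PSII light, with a mean of 1.55, and 1.64 in white light. It was thus 2-fold or more higher at all 4 time points, as were 1.59% of the 2949 features with a value at each of them. In the shift to PSI light it had 0.38, −0.58, 0.18 and −3.46, and −0.0052 in white light. At 48 h it was at 0.0910 times the column median, the lowest of 627 named genes and the 7th lowest of 3163 features, of which 7.3% were 2-fold or more lower. The named gene just above it was LHB1B2, which encodes a light-harvesting protein of photosystem II, at −3.44. The mean over the 4 time points of PSI light was −0.87, and without the 48 h column it was −0.0044, so that mean rests on 1 column.

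Over the 10 columns AT4G39690 spanned 5.47 log2 units, the widest span among 551 named genes with a value in every column, whose median span was 1.13. Both ends of the span lie at 48 h. With the 48 h column of PSI light turned the span is 4.03 and ranks 6th, and with 2 h turned too it is 3.46 and ranks 11th. The value at 48 h of PSII light stood 44.4-fold above that at 48 h of PSI light, each taken relative to its own column median, which was the 2nd largest difference in this direction among 2962 features. The shifts have different references, so this sets 2 changes side by side and does not compare levels between the plants. In all, 3.71% of features were 2-fold or more higher in the first of these columns and 2-fold or more lower in the second, AT4G39690 among them. If the ratio of the second column is inverted, both place the gene above the median and the difference reverses to −1.44 log2 units, ranking 2858th.

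**Figure D2:**
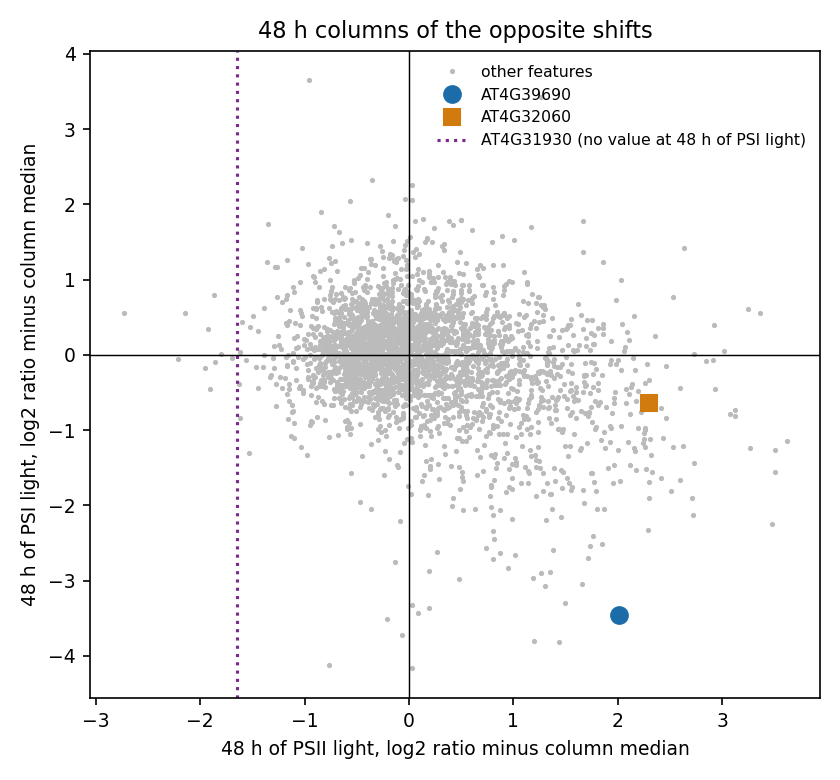
Value of each feature at 48 h of PSII light (horizontal) against the same time in PSI light (vertical), both as log2 ratio minus column median, with 1 column per axis. AT4G39690 lies at 2.01 and −3.46 and AT4G32060 at 2.30 and −0.64, and the dotted line marks AT4G31930 at −1.65 in PSII light, which has no value at 48 h of PSI light.

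Within a shift the time points share a reference. The difference between 2 of them therefore does not involve it, provided that both ratios run the same way. For AT4G39690 the 48 h column of PSII light was 1.31-fold above that at 30 min and 1.69-fold above that at 8 h. Both differences lie inside the 5th to 95th percentile of all features. Most of the distance of this gene from the median was therefore already there at 30 min. Whether it reflects a rapid change or a low value in the shared reference sample cannot be told apart in this design. Between 8 h and 48 h of PSI light the drop was 12.4-fold, or 3.64 log2 units, against a 95th percentile of 2.16 log2 units over all features. With the 48 h column turned, the drop becomes a rise.

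AT4G32060, the calcium uptake gene, had deposited ratios of 1.53, 2.19, 1.73 and 2.90 from 30 min to 48 h of PSII light and 2.89 in white light. After the shift to PSI light its ratios were 1.64, 1.06, 1.66 and 0.811, and 1.21 in white light. The gene lay above its reference in every column except 48 h of PSI light. The ranges of the shifts overlap, since 30 min and 8 h of PSI light exceed 30 min of PSII light.

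Relative to the column median AT4G32060 had 0.84, 1.23, 0.58 and 2.30 in PSII light, with a mean of 1.24, and 1.86 in white light. At 48 h it was at 4.93 times the median, the 3rd highest of 600 named genes, between XERICO at 2.60 and NdhS, a subunit of the chloroplast NDH complex, at 2.26. Without the 48 h column the mean over PSII light was 0.88. Values of 2-fold or more were seen at 2 h and 48 h, where 6.49% and 13.6% of all features were 2-fold or more higher. In PSI light its values were 1.18, −0.073, 1.27 and −0.64, with 0.44 in white light. At 30 min and 8 h of PSI light it was thus again 2-fold or more higher, as were 4.67% and 7.86% of features, but as deposited it had 0.71 and 0.73 there, under 2-fold.

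The time course of AT4G32060 in PSII light was less even than that of AT4G39690. Its 48 h value stood 3.31-fold above its 8 h value and 2.75-fold above its 30 min value, the 40th largest of 2990 and the 20th largest of 2973 such differences. In PSI light the value at 30 min exceeded that at 2 h by 2.38-fold, the 122nd largest of 3081 such differences. The value at 8 h exceeded that at 48 h by 3.74-fold, the 200th largest of 3065. At 1.90 log2 units the latter lies under the 95th percentile of 2.16 over all features. If 2 h and 48 h, where AT4G32060 was low, are turned, the gene lies above the median in both.

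AT4G31930, the mitochondrial glycoprotein family gene, had deposited ratios of 0.322, 0.407, 0.450 and 0.187 from 30 min to 48 h of PSII light and 0.192 in white light. After the shift to PSI light it had 0.458, 1.68 and 0.946 at the first 3 time points. It was listed at 0 at 48 h of PSI light and in the white light column of that shift, 2 columns in which 98 and 115 spots were at 0. Such a 0 can be a failed estimate or a very low signal, and the ratios do not tell which. Every column of the PSII shift lies below every measured column of the PSI shift, by a narrow margin between 8 h of PSII light and 30 min of PSI light.

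Relative to the column median AT4G31930 had −1.40, −1.20, −1.37 and −1.65 in PSII light, with a mean of −1.40, and −2.05 in white light. The mean was the lowest of 588 named genes, and the white light value was the lowest of 609, with AT5G66780 next at −2.046. Together with 1 other feature it was 2-fold or more lower at all 4 time points, which is 0.0678% of 2949. As deposited, 0.237% of features were. With a pseudocount of 0.432, which pulls small ratios towards 1, AT4G31930 was under 2-fold in each of these columns, from −0.84 to −0.68, and in white light at −0.94. In PSI light its values were −0.66, 0.58 and 0.46 from 30 min to 8 h. The 2 h value was the 11th highest of 628 named genes in a column where only 0.285% of features were 2-fold or more higher. The step from 30 min to 2 h of PSI light was 2.37-fold upward, the 22nd largest among 3081 features. If the 2 h column is inverted, that step becomes flat, at −0.66 and −0.58.

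Its course within PSII light was the most even of the members. The values at the 4 time points spanned 0.45 log2 units, against 0.76 for AT4G39690 and 1.73 for AT4G32060, all relative to the median. As deposited the spans were 1.26, 0.27 and 0.92 in the same order, so that AT4G39690 is then the most even. The median ratio of the 48 h column was 0.588, the lowest of the 10 columns, and the highest was 1.26.

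**Figure D3:**
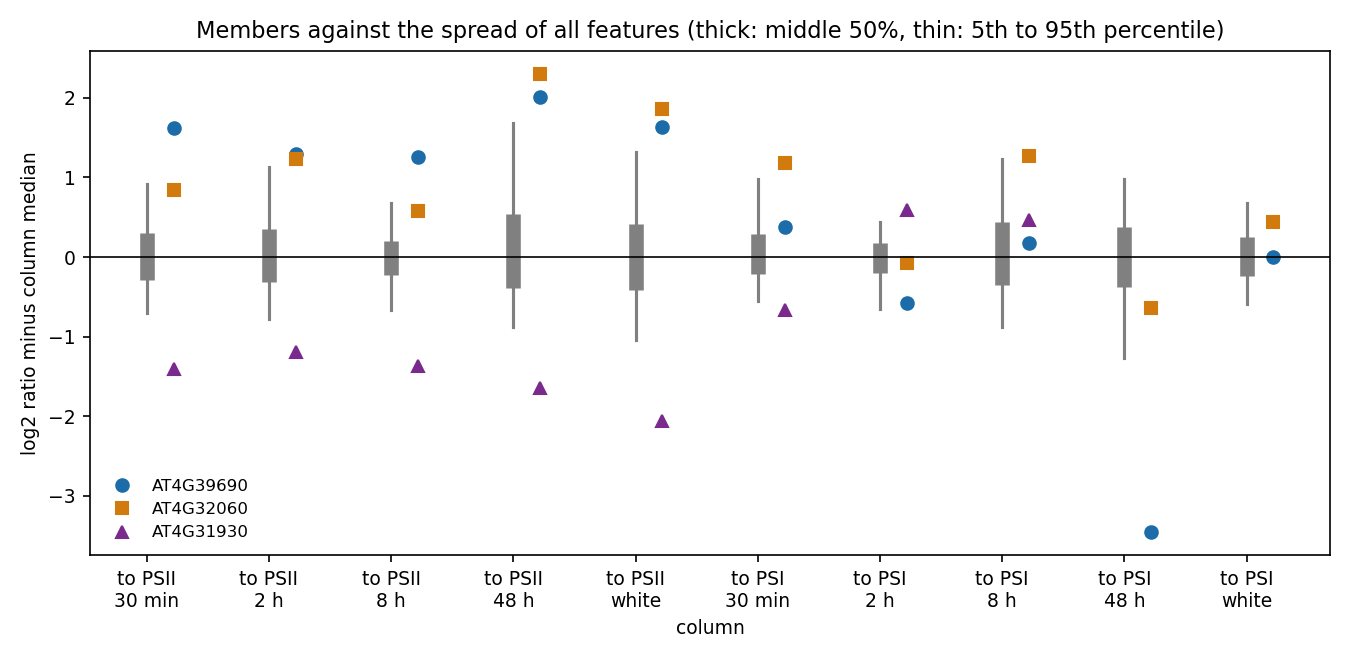
Members (symbols, 1 value per column) against all features in each of the 10 columns, as log2 ratio minus column median, with the middle 50% of features as thick bars and the 5th to 95th percentile as thin lines. In the 5 columns of the shift to PSII light AT4G39690 lies above and AT4G31930 below the thin lines, while AT4G32060 lies inside the line at 30 min and 8 h.

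The width of the columns differed, which bears on how far a member stands out. From 30 min to 48 h of PSII light 3.77%, 6.49%, 2.16% and 13.6% of features were 2-fold or more higher, and 8.45% in white light. The shares 2-fold or more lower were 1.71%, 2.73%, 1.91% and 3.3%, and 5.48% in white light. The 95th percentile of all features was 0.68 at 8 h of PSII light and 1.68 at 48 h, so AT4G39690 with 1.25 ranked 32nd of 3145 features at 8 h and with 2.01 ranked 79th of 3000 at 48 h. AT4G32060 ranked 212th at 8 h and 37th at 48 h. AT4G31930 was 11th from the bottom at 30 min, 50th at 2 h, 24th at 8 h and 11th at 48 h.

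White light in the PSII shift placed all 3 genes close to their 48 h values. For AT4G39690 the 30 min value, 1.63, was closer to the white light value, 1.64, than the 48 h value, 2.01. The 48 h value exceeded the white light value by 1.297-fold for AT4G39690, 1.36-fold for AT4G32060 and 1.32-fold for AT4G31930, each inside the 5th to 95th percentile of all features. In the shift to PSI light AT4G39690 at 48 h was at 0.0913 times its white light value, and AT4G32060 at 0.473 times. The first lies below the 5th percentile of all features and the second inside the 5th to 95th percentile. For AT4G31930 neither of these columns gave a value. The reference of the white light columns is unknown, so the folds against white light hold only if it is that of the time points. Those of PSI light also require that its 48 h column is not turned.

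The profiles of the members were then compared over the columns. These correlations are descriptions without a p-value, since the time points of a shift share a reference and are not independent. AT4G39690 and AT4G32060 had a Pearson's r of 0.82 and a Spearman's rho of 0.82 over 10 columns. Without PSI light at 2 h and 48 h, the columns farthest from the median of AT4G39690, r was 0.57. With these columns turned instead of left out it was 0.22. Over the 5 columns of the PSII shift alone, which this does not touch, it was 0.80. AT4G39690 and AT4G31930 had an r of −0.93 and a rho of −0.95 over the 8 columns in which both had a value. The columns left out include 48 h of PSI light, where AT4G39690 had −3.46 and AT4G31930 was listed at 0. If that 0 is a very low signal, both genes were low there and the opposition does not extend to that column. Leaving out the columns farthest from the median of AT4G39690, 48 h in PSII light and 2 h in PSI light, gave −0.91. Over the 5 columns of the PSII shift alone r was −0.55, and over the 3 shared columns of the PSI shift −0.73. The r over both shifts thus also holds the offset between them. Among 551 named genes with a value in every column, AT4G39690 had the lowest r with AT4G31930. AT2G46300 was nearly level with it, at −0.9344 against −0.9350. For AT4G32060 and AT4G31930 r was −0.59 and rho −0.55 over 8 columns, and −0.13 without the same pair of columns, so that relation rests on those columns.

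The most like and most opposite named genes of each member were picked by r, so their r is large by choice. Over all genes compared, the 95th percentile of r was 0.819 with AT4G39690 and 0.858 with AT4G32060, against 0.824 between these members. With AT4G31930 the 5th percentile of r was −0.811, against −0.935 for AT4G39690 and −0.590 for AT4G32060. For AT4G39690 the 5 most like genes were AT4G17070 with an r of 0.98, XERICO, a RING-type protein gene tied to abscisic acid responses, with 0.97, OTP70, an organelle transcript processing factor, with 0.95, AT4G31530 with 0.94 and AT3G57440 with 0.93. Their rho was 0.99, 0.99, 0.93, 0.84 and 0.76 in the same order. All 5 were lowest at 48 h of PSI light, from −3.30 for AT4G31530 to −0.80 for AT3G57440. The most opposite genes were PRA1.B3, a prenylated RAB acceptor, with −0.97, AT3G20920 with −0.94 and AT2G47680 with −0.94, and all 3 were highest at 48 h of PSI light. These extremes at 48 h of PSI light follow largely from the choice by r, since AT4G39690 lies farthest from the median there. Of 550 genes compared, 12 had an r of 0.9 or more and 6 an r of −0.9 or less.

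For AT4G32060 the most like genes were AT1G13990 with an r of 0.99, AT4G27700 and NdhS with 0.97 each, AT5G06990 with 0.96 and AT2G44760 with 0.95. AT1G13990 had a narrower range, from −0.26 to 1.84 relative to the median, and NdhS ran from −1.004 to 2.26. The most opposite were AT1G04330 with −0.94, OSB1, an organellar single-stranded DNA-binding protein, with −0.93 and AT5G40030 with −0.91. Here 16 of 550 genes had an r of 0.9 or more and 3 an r of −0.9 or less.

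For AT4G31930, over its 8 columns, the most like genes were AT1G35210 with an r of 0.93, AT5G48440 with 0.92, AT1G73120 with 0.91, AT4G22830 with 0.90 and AT1G17744 with 0.89. None of them came as far from the median. Their means over PSII light lay between −0.77 and −0.19, against −1.40 for AT4G31930. Besides AT4G39690, the most opposite genes were AT2G46300 with −0.93 and AT4G04370 with −0.91. AT2G46300 had the larger values of the pair, from 1.23 to 1.63 over the PSII time course.

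**Figure D4:**
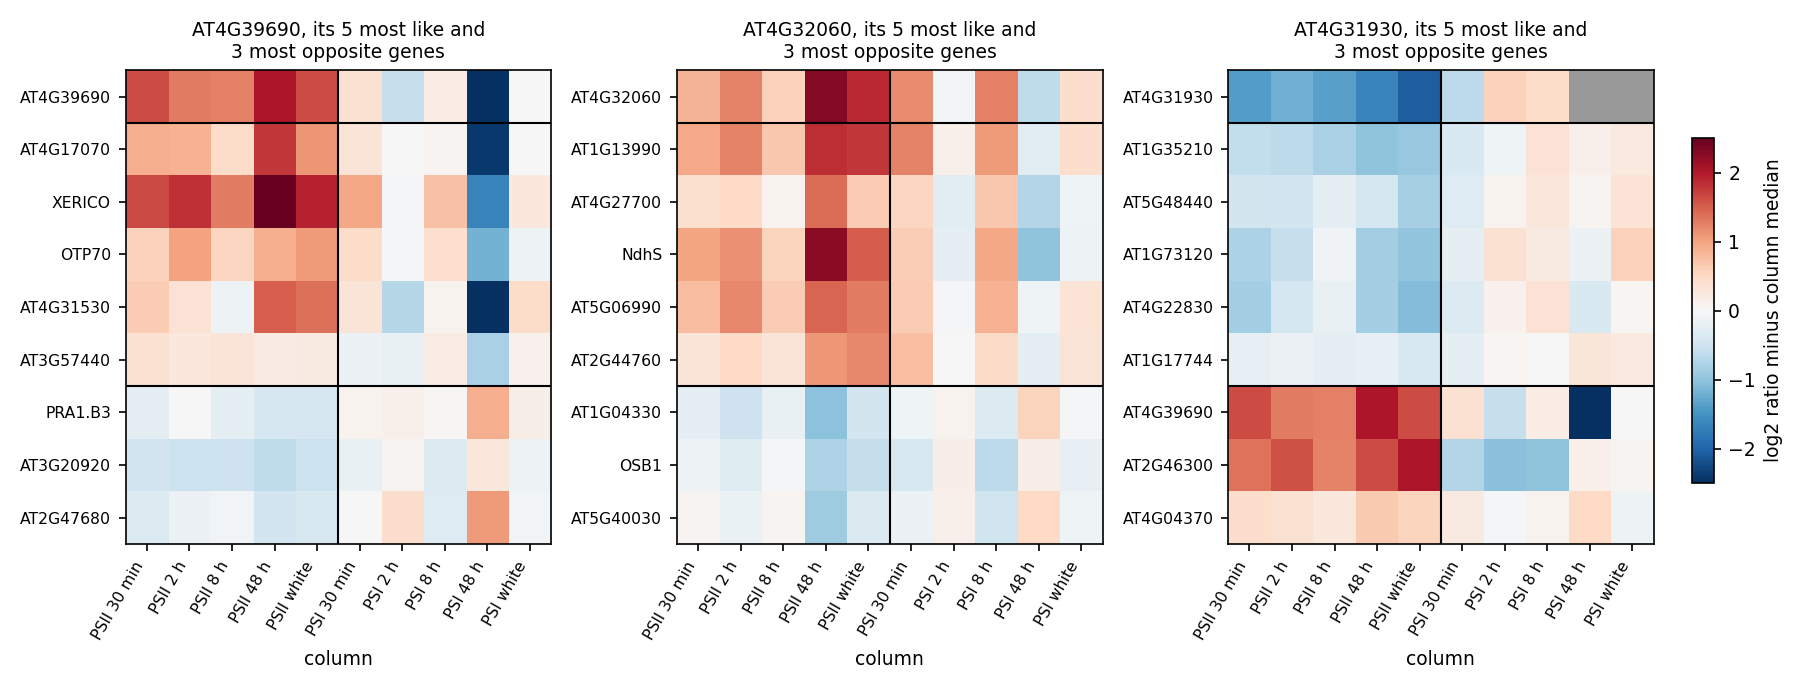
Each member (top row) with its 5 most like and 3 most opposite named genes by Pearson's r over the columns in which the member has a value, coloured by log2 ratio minus column median, with the colour capped at 2.5 in either direction and grey for no value. The 5 genes most like AT4G39690 are lowest at 48 h of PSI light, which the choice by r favours. The 5 most like AT4G31930 are paler than it throughout the shift to PSII light.

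Few other mitochondrial genes could be set beside the members. Of 108 genes on 9 lists of mitochondrial functions (MICOS and cristae, calcium uptake, the glycoprotein family, alternative respiration, glycine decarboxylation, the tricarboxylic acid cycle, ATP synthase, import and chaperones, and carriers), 4 had a spot of their own, namely the 3 members and AT5G02050, a further member of the glycoprotein family. None of the 75 genes with a mitochondrial name in the gene table had one.

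AT5G02050 stayed under 2-fold from the median in all 10 columns, from −0.90 to 0.18. As deposited it was 2-fold or more lower in 3 columns. These were 48 h and white light of the PSII shift and 8 h of PSI light. Relative to the median it had −0.32, −0.22, −0.086 and −0.41 from 30 min to 48 h of PSII light. Their mean was −0.26, against −1.40 for AT4G31930. In the white light column of that shift it had its lowest value, −0.90, as AT4G31930 had with −2.05. AT4G31930 lay below AT5G02050 by 0.97 to 1.28 log2 units during PSII light and also by 0.71 at 30 min of PSI light. It lay above AT5G02050 by 0.40 and 0.96 at 2 h and 8 h of PSI light. These are differences of changes relative to each gene's own reference, not of levels. At 48 h of PSI light and in white light, where AT4G31930 was listed at 0, AT5G02050 had −0.39 and −0.41. A spot that pairs with several genes of this family, and so cannot be given to one of them, had 1.54 after 48 h in PSII light, 1.01 and 1.05 after 30 min and 8 h in PSI light and −0.80 after 48 h there. The measured spots of the glycoprotein family thus lay on different sides of the median at 48 h of PSII light.

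A further 9 measured genes of related function were picked by name. The respiratory chain and its quinone pool were represented by AT4G02580 and AT5G47890, listed as complex I subunits, AT5G67490, listed as an assembly factor of succinate dehydrogenase, ETFQO, the electron-transfer flavoprotein:ubiquinone oxidoreductase, and GLDH, which makes ascorbate and passes electrons to cytochrome c. Only AT4G02580 passed 2-fold, with 1.04 at 30 min and 1.17 at 48 h of PSII light and 1.95 at 8 h of PSI light, and it was listed at 0 in the other 4 columns of the PSI shift. AT5G47890, of the same complex, stayed between −0.33 and 0.31. ETFQO ran from −0.89 to 0.54 and had no value at 48 h of PSII light. GLDH had its highest value, 0.57, at 48 h of PSI light, where AT4G39690 had its lowest. OSB1 stayed between −0.78 and 0.17, and GLX2-1, a glyoxalase, between −0.63 and 0.0068.

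Of the EF-hand calcium sensors, CML30 resembled AT4G32060. Its values were 0.70, 0.90, 0.37 and 1.39 in PSII light, 1.49 in white light, and 0.75, −0.29, 0.80 and −0.052 in PSI light, so it was 2-fold or more higher at 48 h and in white light of the PSII shift. Its r with AT4G32060 was 0.94 over 10 columns, with a rho of 0.96. Of the 550 genes compared with AT4G32060, 16 had an r of 0.9 or more, so such an r is not particular to calcium sensors. CML41 stayed under 2-fold, from −0.36 to 0.51, and had an r of 0.15 with AT4G32060. Of the 94 values of these 10 genes, AT5G02050 included, 5 were 2-fold or more above the median and 0 below, against 5.33% and 2.97% of all 31074 values in the table. Their median was −0.047, where that of all values is 0.

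**Figure D5:**
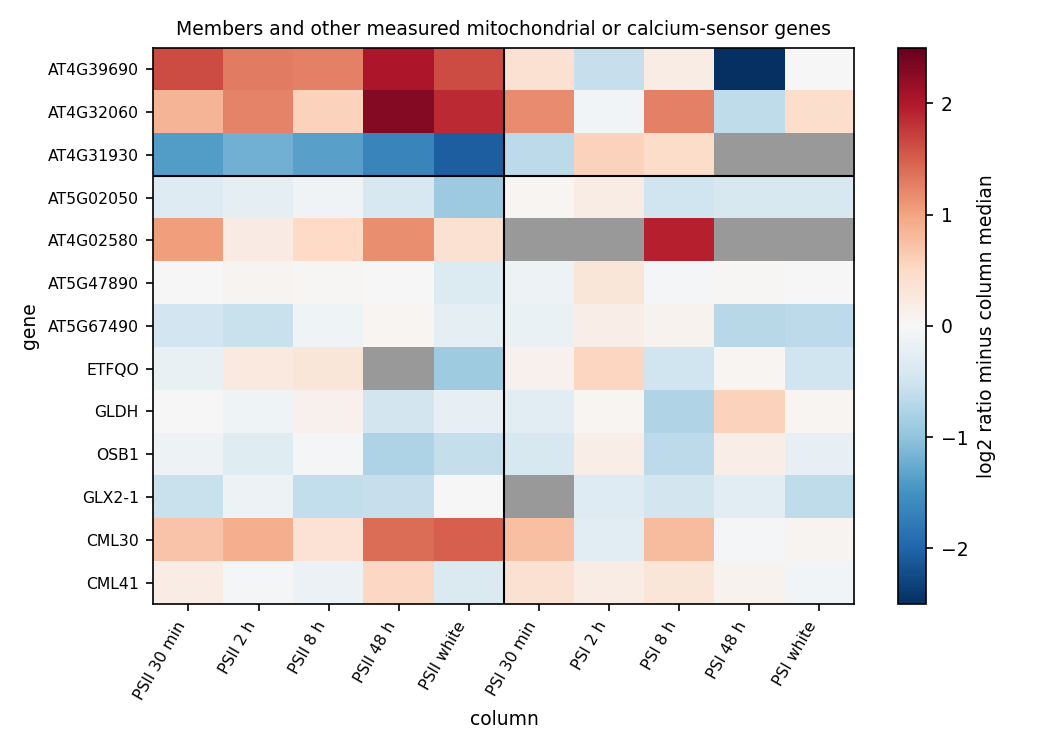
The 3 members (above the line) and 10 other measured genes of mitochondrial function or calcium sensing (below it), coloured by log2 ratio minus column median in each of the 10 columns, with the colour capped at 2.5 in either direction and grey for no value. Most rows below the line are pale, while CML30 follows AT4G32060 and AT4G02580 reaches 1.95 at 8 h of PSI light.

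All 3 members lie on chromosome 4 in the TAIR10.1 gene table. AT4G31930 and AT4G32060 have 13 protein-coding genes between them, and 817 lie between AT4G32060 and AT4G39690. The closer pair had values of opposite sign in all 5 columns of the shift to PSII light and at 30 min of PSI light. At 2 h and 8 h of PSI light it depends on the scale, with opposite signs at 2 h relative to the median and at 8 h as deposited.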

How the data were processed

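Leaf RNA was measured on nylon filters. The deposited values are ratios per spot, taken here as a condition over its reference, a direction that no label states. Background correction, scaling and the merging of the 3 experiments are each not given in the sources used here. Of 3262 spots, 34 were at 0 in all columns. A spot at 0 in a column was treated as having no value there, which left 3000 to 3163 of 3261 features per column. By the platform annotation, which is old, 645 spots had exactly 1 gene, 829 several and 1788 none. The TAIR10.1 gene table held 643 of the 645. Each member had 1 spot. The 2 spots of one other gene were averaged.

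Ratios were taken to log2, and each column's median over all features was subtracted (Python 3.11.15, pandas 2.3.3, numpy 2.4.6). With 1 column per condition no test was run. A feature was counted as called at 2-fold. The steps were tested on simulated data. The members, the gene lists and the rules were chosen with earlier results of these data known, and the 9 further genes and the several-gene spots were added after the table was opened. Named are the 3 members, for each the 5 most like and 3 most opposite genes by r over the columns, its neighbours in rank where it was farthest from the median, and the measured genes of the lists. Alternatives were other centring, quantile normalization, a pseudocount of 0.432, thresholds of 1.5-fold and 3-fold, time points left out, Spearman's rho, and inversion of the PSI light columns at 2 h and 48 h. Ratios hold no levels, so none was filtered on. The number of arrays limits the precision. No sequences are shown, as none were used here.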

Additional observations from a re-analysis of the deposited data

Results flagged for a closer look

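As deposited, AT4G39690 was above its reference at all 4 time points of PSII light and below its reference at all 4 of PSI light, with means that differ by 2.32 log2 units (1.33 against −0.995). The mean over PSI light rests on 48 h, where the value was −3.12, and is −0.29 without it. If the ratios at 2 h and 48 h after that shift are inverted, a reading added after the data had been seen, the gene lies above its reference at both times and the mean is 0.77. As read here the direction is opposite at every time point, but at 30 min of PSI light the ratio, 0.944, was close to 1. The difference was not tested, because there is 1 column per condition. Relative to the column median the gene lay above 0 at 30 min and 8 h of PSI light, with 0.38 and 0.18, so the pattern holds as deposited but not after centring.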

How the results depend on the processing

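Of 225 recomputed values, 195 kept their sign and side of 2-fold or moved little (correlations by up to 0.2, counts within 1.5 times), and small values that changed sign under 2-fold are among them. Also among them are the PSII means under inversion of PSI light columns, which cannot change by construction. The PSI mean of AT4G39690 without 48 h, −0.0044 against −0.87, is counted there too. With the pseudocount of 0.432, which pulls small ratios towards 1 by construction, AT4G31930 was under 2-fold in PSII light, with −0.75, −0.69, −0.84 and −0.68 from 30 min to 48 h and −0.94 in white light, and AT4G32060 had 0.96 at 2 h of PSII light and 0.85 and 0.92 at 30 min and 8 h of PSI light. As deposited, AT4G32060 had 0.71 and 0.73 at these times of PSI light and was past 2-fold in 3 columns instead of 5, while AT4G31930 had −1.13 at 30 min of PSI light. Quantile normalization gave AT4G31930 1.47 at 2 h of PSI light. At 3-fold, AT4G32060 and AT4G31930 passed in 2 columns each. Inverting PSI light at 2 h and 48 h turned the PSI mean of AT4G39690 to 1.15. Leaving out 1 time point moved that mean between −1.28 and −0.0044, and the PSII mean of AT4G32060 between 0.88 and 1.46. The r of AT4G39690 with AT4G32060 was 0.22 with both columns inverted and 0.57 without its farthest columns, and with AT4G31930 it was −0.55 over 5 columns of the PSII shift and −0.73 over 3 of the PSI shift. The r of AT4G32060 with AT4G31930 was −0.87 as deposited, −0.38 inverted and −0.13 without its farthest columns. List values past 2-fold numbered 0 for AT5G02050, 1 at 1.5-fold, 3 as deposited, 5 with the further genes and 4 for the several-gene spots. The causes were not tested. The list by names in the gene table held no measured gene and gave no value. No paired analysis was possible because each condition has 1 column. Signal over background is unknown.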
